A study of Homo sapiens with 4 samples.

Results

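The zinc finger genes of human chromosome 19 were examined in ATAC-seq data of LNCaP prostate cancer cells and of enzalutamide-resistant LNCaP cells. The set held every protein-coding gene of chromosome 19 in RefSeq (GRCh38.p14) whose symbol is ZNF followed by digits and optional letters. No accessibility value entered this rule, though it was chosen with earlier results of these data known. The rule gave 246 genes of 20037 protein-coding genes in all. The other 1205 protein-coding genes of chromosome 19 served as background. ATAC-seq uses a transposase that inserts sequencing adapters into open DNA, and a peak summit is the position within an open region where the signal is highest. The series has 2 libraries of LNCaP, an established androgen-responsive prostate cancer line labelled wild type, and 2 libraries of resistant cells grown from that line and treated with enzalutamide, an androgen receptor inhibitor. The labels do not say which of the study's resistant sublines was used, at which dose, or whether the replicates came from separate cultures. Both cell types carry the same LNCaP background, and neither has an engineered change in its label.

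C2H2 zinc finger genes encode proteins whose repeated fingers each read a short stretch of DNA, and many of those on chromosome 19 also carry a KRAB box. The KRAB box recruits the corepressor TRIM28, which brings the histone methyltransferase SETDB1 and heterochromatin proteins to the bound site. Many of these proteins silence retroelements, and the genes arose by repeated local duplication, so that they lie in clusters of close relatives. Their own 3′ parts, which hold the finger exons, are known as sites of H3K9 methylation, and several of their CpG-rich promoters are known to become methylated in tumours.

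The promoters of 5 genes to which the results return are printed here because they cover the range of patterns: ZNF132 and ZNF671 had lower end percentiles in resistant cells, ZNF257 and ZNF135 had higher ones, and ZNF564 was among the most open in every library. Each runs 5′ to 3′ from 250 bases before to 50 bases after the RefSeq start (GRCh38.p14), with CpG dinucleotides in capitals. They lie at chr19:58440104-58440403 (minus strand), chr19:57727575-57727874 (minus), chr19:22052234-22052533 (plus), chr19:58058989-58059288 (plus) and chr19:12551433-12551732 (minus), in the order printed.
ZNF132: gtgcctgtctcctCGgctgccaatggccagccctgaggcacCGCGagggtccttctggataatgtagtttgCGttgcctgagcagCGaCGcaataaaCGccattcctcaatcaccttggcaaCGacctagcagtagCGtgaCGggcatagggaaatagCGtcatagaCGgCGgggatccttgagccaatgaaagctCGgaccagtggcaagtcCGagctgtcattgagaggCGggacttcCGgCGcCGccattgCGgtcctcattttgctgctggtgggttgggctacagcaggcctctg
ZNF671: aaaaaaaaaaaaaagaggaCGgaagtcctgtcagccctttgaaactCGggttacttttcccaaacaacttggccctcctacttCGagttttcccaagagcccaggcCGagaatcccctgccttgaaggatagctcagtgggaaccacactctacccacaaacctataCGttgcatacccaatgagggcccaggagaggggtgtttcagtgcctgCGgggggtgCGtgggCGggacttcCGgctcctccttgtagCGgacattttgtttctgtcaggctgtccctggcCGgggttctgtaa
ZNF257: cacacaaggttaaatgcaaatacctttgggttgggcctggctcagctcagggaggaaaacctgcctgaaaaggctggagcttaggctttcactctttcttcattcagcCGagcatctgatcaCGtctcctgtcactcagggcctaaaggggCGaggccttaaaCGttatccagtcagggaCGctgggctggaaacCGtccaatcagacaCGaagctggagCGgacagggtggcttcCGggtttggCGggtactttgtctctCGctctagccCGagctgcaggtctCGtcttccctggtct
ZNF135: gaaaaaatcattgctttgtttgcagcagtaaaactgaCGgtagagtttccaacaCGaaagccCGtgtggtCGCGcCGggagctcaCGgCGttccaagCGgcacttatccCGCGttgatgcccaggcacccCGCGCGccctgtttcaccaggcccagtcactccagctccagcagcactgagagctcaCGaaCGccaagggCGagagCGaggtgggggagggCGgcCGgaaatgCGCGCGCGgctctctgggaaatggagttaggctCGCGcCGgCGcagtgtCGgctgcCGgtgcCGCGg
ZNF564: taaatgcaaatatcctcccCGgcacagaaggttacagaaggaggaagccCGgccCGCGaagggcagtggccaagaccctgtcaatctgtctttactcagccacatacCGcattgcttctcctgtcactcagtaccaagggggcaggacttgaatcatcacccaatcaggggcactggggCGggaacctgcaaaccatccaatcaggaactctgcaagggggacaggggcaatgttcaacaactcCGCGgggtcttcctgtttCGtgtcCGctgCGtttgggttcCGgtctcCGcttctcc
The windows hold 20, 11, 13, 32 and 13 CpG dinucleotides.

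The lists held 117245 and 107344 summits in LNCaP replicates 1 and 2, and 70866 and 45618 in resistant replicates 1 and 2. Chromosome 19 took 3.04% and 3.13% of the LNCaP summits and 4.54% and 4.86% of the resistant ones. The lists carry no read counts, so the depth is unknown, and whether a missing summit reflects depth or closed chromatin cannot be told apart. Of 7 luminal prostate genes checked, 6, 6, 6 and 5 had a summit within 1 kb of an end, with none at KLK3 in any library. Values below are given in the order LNCaP 1, LNCaP 2, resistant 1, resistant 2. Strength is the percentile of a gene's strongest summit within its library, that is the percent of scores in the list that do not exceed its own, and a gene without a summit has the value 0. With 2 libraries against 2, no two-sided exact permutation test can give a p below 0.333, so differences were read against the spread between replicates.

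Most zinc finger genes were open at an end in both cell types. A summit lay within 1 kb of either end in 81.7% and 82.1% of the 246 genes in LNCaP and in 85.8% and 83.3% in resistant cells. The difference was 2.64 points (pooled SD 1.24, n = 2 and 2), with 4.07 points within replicate 1 and 1.22 within replicate 2 (exact permutation p = 0.333, the smallest this design allows). The other protein-coding genes of chromosome 19 had a summit in 62.6%, 61.1%, 66.1% and 60.7%. The share was thus above that of the other genes in every library, with gaps of 19.1, 21.0, 19.6 and 22.7 points. The change in this gap between cell types, 1.07 points, was smaller than its pooled SD of 1.79, and without resistant replicate 2 it was -0.45 points. In all, 193 zinc finger genes had an end summit in all 4 libraries, 22 in 1 to 3 libraries and 31 in none.

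The open ends were also strong. The median percentile over all 246 genes was 91.8 and 89.1 in LNCaP and 91.7 and 87.9 in resistant cells, against 51.5, 45.1, 64.4 and 50.8 for the other genes. The cell types overlapped, with a difference of -0.70 points (pooled SD 2.32, exact permutation p = 0.667). Its sign turned without LNCaP replicate 1 (0.63) and without resistant replicate 2 (1.21). A percentile of at least 90 was reached by 52.8% and 48.0% of the zinc finger genes in LNCaP and 54.1% and 43.1% in resistant cells, and by between 15.3% and 20.9% of the other genes. The gap in the median to the other genes was 40.3, 44.0, 27.2 and 37.0 points. It was lower in both resistant libraries, by 10.0 points on average (pooled SD 5.25, exact permutation p = 0.333), while the medians of the other genes were 9.31 points higher there (pooled SD 7.52). The size of this change in the gap depended on the setting. Lists cut to equal length gave -37.0 points. The medians of the other genes were then 0, 0, 44.7 and 50.8, as only 45.4% and 45.7% of them kept an end summit in LNCaP. Those of the zinc finger genes were 78.9, 74.4, 87.1 and 87.9, so both sets had higher medians in resistant cells. The change in the gap was -20.2 with a score of at least 10, -5.10 without resistant replicate 1 and -1.63 when genes were ranked among all protein-coding genes.

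**Figure D1:**
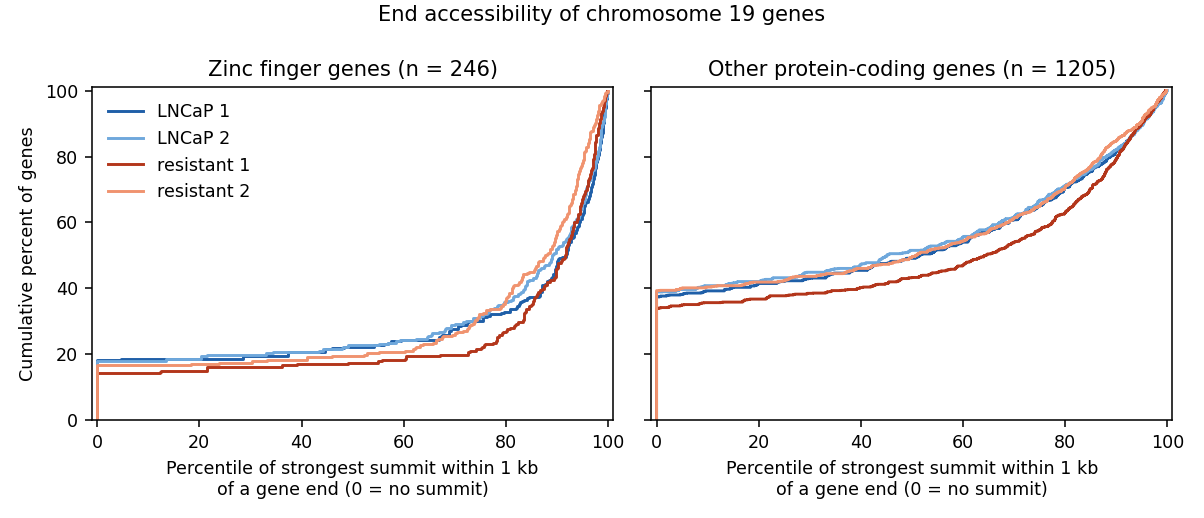
Cumulative percent of genes (y axis) against the percentile of the strongest summit within 1 kb of a gene end (x axis, 0 for no summit) in each of the 4 libraries, for the 246 zinc finger genes (left) and the 1205 other protein-coding genes of chromosome 19 (right). The left curves stay low until about the 70th percentile in every library. The right curves start higher, as more of these genes have no summit, and rise most steeply at high percentiles.

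Some ends stood near the top of every library. ZNF564, at chr19:12525373-12551482, had percentiles of 99.98, 99.86, 99.58 and 99.66. ZNF77 had 99.60, 99.97, 99.32 and 99.22, and ZNF253 had 99.01, 99.24, 99.83 and 99.37. These 3 genes were picked for the highest lowest-of-4 values of the set, so high values in every library follow from the pick. Not every strong LNCaP end stayed as high: ZNF429 had 99.6 and 99.5 against 97.3 and 92.5. In the ZNF564 promoter printed above, the summits lay 127, 131, 127 and 124 bases before the start. Of the 193 genes with an end summit in all 4 libraries, 126 had mean percentiles in the cell types within 5 points of each other, and 36 differed by over 10 points, 18 in each direction.

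The summits marked the 5′ ends. For the 216 zinc finger genes whose strand RefSeq's promoter table gives, a summit lay within 1 kb of the 5′ end in 81.5% and 81.9% in LNCaP and 85.2% and 82.4% in resistant cells. At the 3′ end the shares were 2.78%, 2.78%, 2.31% and 1.85%, or 6, 6, 5 and 4 genes. Among the other 969 genes with a known strand, the 3′ shares were 20.4%, 20.0%, 19.7% and 14.6%. Among 14657 genes of other chromosomes with a known strand they were lower, at 13.7%, 13.3%, 9.91% and 6.86%. The 3′ ends of zinc finger genes were thus nearly free of summits in both cell types. Finger exons were not located here. The median 5′ summit lay 40, 49, 39 and 44.5 bases before the gene's start, and between 82.4% and 88.0% of these summits lay within 250 bases of it. For the 193 genes open in all libraries the 4 summit positions spanned a median of 38 bases.

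**Figure D2:**
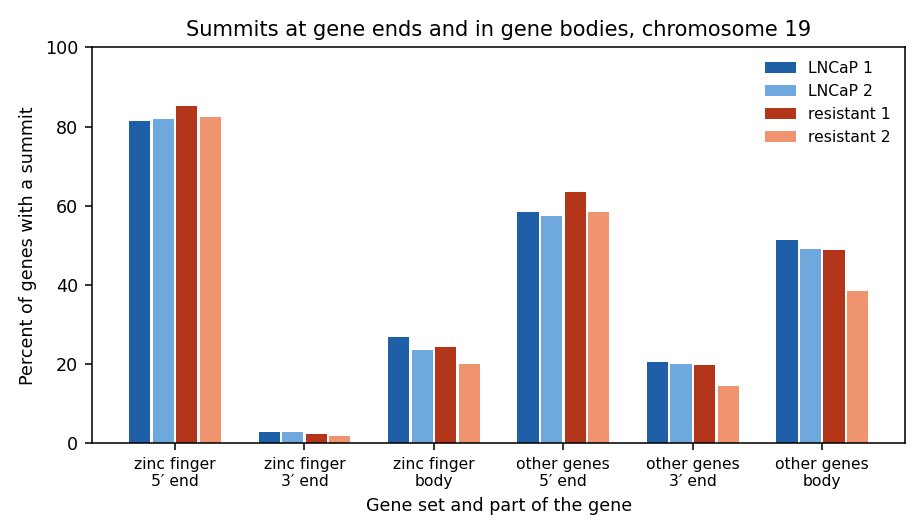
Percent of genes (y axis) with a summit within 1 kb of the 5′ end, within 1 kb of the 3′ end, or in the gene body, for zinc finger genes and other protein-coding genes of chromosome 19 (x axis), with 1 bar per library. The 5′ and 3′ bars cover genes of known strand (216 and 969), the body bars all 246 and 1205 genes, and the zinc finger bars at the 3′ end stay below 3%.

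Many of the 31 genes without an end summit were not closed. In 22 of them a summit lay in the gene body in all 4 libraries, and 11 of those reached the 90th percentile in every library. RefSeq gene models can extend upstream of the start in the promoter table, and for 19 of the 26 such genes with an entry that start lay over 1 kb inside the model. Measured from the table's starts instead, 90.7%, 91.2%, 94.0% and 91.7% of the 216 zinc finger genes had a summit within 1 kb, against 59.3%, 58.6%, 64.1% and 58.1% of the other 969 genes. ZNF331 is an example, with 5, 5, 5 and 6 summits in its body at percentiles up to 97.6, 93.4, 95.7 and 96.3. Only 5 genes had no summit at an end or in the body in any library: ZNF90, ZNF486, ZNF626, ZNF404 and ZNF154.

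The promoters of zinc finger genes shared sequence features that the choice of genes did not use. The letters CCGGAAG, the core bound by ETS factors, occurred on either strand in 45.4% of the 216 promoters, compared with 13.0% of the 969 other promoters of chromosome 19 and 14.2% of 15842 promoters of all chromosomes. The CCAAT box (CCAAT) occurred in 53.7% against 37.0% of the other promoters of chromosome 19, and the TATA box (TATAAA) in 1.85% against 8.05%. The GC box (GGGCGG) was about as frequent in both, at 67.6% and 65.9%, and the median number of CpG dinucleotides was 20 against 21. No motif contains another, though matches can share letters at their edges, and a match is only a match of letters. Of the 216 promoters 27 share a window of 50 bases with another gene. Some are neighbours within the set, such as ZNF490 and ZNF791 with 157 of 251 windows, so the same site can count for both. Genes open at an end in all 4 libraries held CCGGAAG in 48.0% of 171 promoters, and genes open at an end in none held it in 34.6% of 26. These classes rest on the ends of the gene models, while the promoters were cut at the promoter table's starts. At those starts 17 of the 26 had a summit in all 4 libraries, so the shares do not compare open with closed promoters. Among the printed promoters, ZNF132, ZNF671 and ZNF257 hold it and ZNF135 and ZNF564 do not.

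Between the cell types the genes moved in both directions. A gene was called higher when both resistant percentiles lay above both LNCaP percentiles, and lower in the reverse case. At their ends 42 of the 246 zinc finger genes were higher, or 17.1%, where the background over the other chromosome 19 genes was 21.8%. A further 81 were lower, or 32.9%, where the background was 17.1%. Genes without an end summit in any library cannot be called either way. Among the 215 zinc finger genes and 879 other genes with one, 19.5% against 29.9% were higher and 37.7% against 23.4% lower. The higher share was thus below the background and the lower share above it. The size of these differences was not tested, since genes are not replicates. The lower genes were mostly strong ends that changed little: the 77 that kept a summit in some resistant library had a median LNCaP percentile of 97.3 and a median change of -3.73 points. The 34 higher genes with a summit in some LNCaP library had a median LNCaP percentile of 70.2 and a median change of 15.1 points. Large changes leaned the other way, with 16 genes higher and 5 lower by over 30 points and 11 higher and 3 lower by over 50 points. Changes over 30 points were seen in 8.54% of the zinc finger genes and 10.9% of the other genes (85 higher, 46 lower). Among the 1205 other genes 28 were higher and 19 lower by over 50 points, so their large changes also leaned to the higher side.

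The counts depended on the libraries and on the lengths of the lists. Without resistant replicate 2, 81 genes were higher, and without resistant replicate 1, 122 were lower, as the rule then has fewer libraries to meet. With the 45618 highest-scoring summits of every library, 99 zinc finger genes were higher and 31 lower, and of the other genes 42.7% were higher and 4.15% lower. On this scale the median percentile was 78.9, 74.4, 87.1 and 87.9, so that its direction turned. The lower share of the zinc finger genes, 12.6%, was above that of the other genes under equal numbers too.

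Presence itself switched in few genes. A summit was present in both resistant libraries and absent from both LNCaP libraries in 8 zinc finger genes (3.25%, background 3.32%). The reverse held in 4 genes (1.63%, background 2.74%). Among genes with an end summit in any library, 3.72% against 4.55% were gained and 1.86% against 3.75% lost. The gained share was thus near the background and the lost share below it. With equal numbers of summits 15 of the 246 zinc finger genes and 138 of the 1205 other genes were gained. Of the 4 lost genes 3, ZNF132, ZNF587 and ZNF587B, lie in the last cluster of the chromosome.

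ZNF132, a gene known for promoter methylation in tumours including those of the prostate, showed the largest loss. Its percentiles were 92.7 and 94.9 in LNCaP and 0 and 0 in resistant cells, a change of -93.8 points (pooled SD 1.13). The LNCaP summits lay 27 and 12 bases before the start in the promoter printed above. With equal numbers of summits the LNCaP values were 81.2 and 88.1, and the resistant values stayed at 0. ZNF132 lies at chr19:58432814-58440153.

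ZNF587, at chr19:57849859-57865117, had percentiles of 95.0 and 84.1 in LNCaP and 0 and 0 in resistant cells, a change of -89.6 points (pooled SD 5.40). Its neighbour ZNF587B had 44.6 and 48.1 in LNCaP and no end summit in resistant cells, and its body summit, at percentiles of 65.2 and 27.1 in LNCaP, was absent there as well. ZNF587 encodes a repressor of HERV-K retroelements. The libraries of the cell types did not overlap at either gene. ZNF415 was the weakest loss, with 28.6 and 13.6 in LNCaP and 0 and 0 in resistant cells. With equal numbers of summits ZNF587B and ZNF415 had no end summit in any library, so their losses rest on weak LNCaP summits. ZNF587B also shares 24 of its 251 promoter windows of 50 bases with ZNF814, a close relative, and how reads with several matches were handled is not given in the sources used here.

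ZNF671, another gene known for promoter methylation in tumours, was lower without being lost. Its percentiles were 76.8 and 89.2 in LNCaP and 21.4 and 41.1 in resistant cells, a change of -51.7 points (pooled SD 11.6). The summit also lay elsewhere, 10 bases after and 37 bases before the start in LNCaP and 125 and 124 bases after it in both resistant libraries. The other lower genes named by size were ZNF574 (37.3 and 43.4 against 12.4 and 0), ZNF730 (91.9 and 92.8 against 74.1 and 62.4), ZNF480 (92.8 and 86.2 against 75.2 and 62.2) and ZNF329 (94.8 and 88.4 against 86.7 and 63.2). The groups did not overlap in any of these genes, although for ZNF329 the change of -16.6 points was little larger than its pooled SD of 12.2. With equal numbers of summits ZNF671 (40.4 and 74.5 against 0 and 41.1) and ZNF329 (86.7 and 72.7 against 79.4 and 63.2) overlapped, and ZNF574 had no end summit in any library. The summits counted for ZNF574 lay next to its 3′ end, and a body summit of that gene stood at 96.1, 95.9, 99.4 and 99.1.

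Among the gained genes ZNF98 was the strongest. It had no end summit in LNCaP and percentiles of 89.8 and 89.5 in resistant cells, a change of 89.7 points (pooled SD 0.15). ZNF69 had 0 and 0 against 84.0 and 83.0, and ZNF540 had 0 and 0 against 85.4 and 81.2. These 3 genes had close values in the resistant replicates. ZNF208 was less even, with 85.0 and 41.1 in resistant cells, as was ZNF875 with 75.7 and 45.9. The remaining gained genes, ZNF420 (60.4 and 33.3), ZNF534 (39.2 and 30.3) and ZNF177 (21.4 and 23.8), were weaker. With equal numbers of summits ZNF177 had 0, 0, 0 and 23.8 and was no longer gained, and ZNF534 had 5.54 and 30.3 in resistant cells. The resistant 2 summits of ZNF208 and ZNF875 had scores of 8.27 and 9.68, below the minimum of 10 used in an alternative. ZNF69, ZNF420, ZNF540 and ZNF875 each also had a stronger body summit in all 4 libraries. In ZNF540 it stood at 97.1, 97.3, 93.0 and 94.0, and these values are those of the end summit of ZNF571, which lies inside ZNF540. In ZNF69 it stood at 99.2, 99.4, 99.4 and 99.9, where the LNCaP values are those of the end summit of ZNF700 inside it and the resistant values those of ZNF763, which overlaps it. The end of ZNF763 had 75.5, 62.4, 99.4 and 99.9, and was higher. The gained summit of ZNF540 lies next to the end of another annotated gene, LOC124904708, so it cannot be assigned to 1 gene. That of ZNF177 lies at its 5′ end and inside the readthrough gene ZNF559-ZNF177. The 3′ end of ZNF69 lies next to an end of ZNF763.

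Other higher genes had a weak summit in some LNCaP library. ZNF729, at chr19:22286441-22317176, had percentiles of 4.70 and 0 in LNCaP and 99.1 and 94.1 in resistant cells, a change of 94.2 points (pooled SD 3.41). ZNF665 had 0 and 21.5 against 84.6 and 89.6. ZNF99 had 37.3 and 20.4 against 99.3 and 96.5. These ends went from weak summits or none to strong ones in both resistant libraries. ZNF135, whose promoter is printed above, had 28.6 and 0 against 85.3 and 82.5. ZNF578 had 0 and 20.4 against 80.7 and 52.9. With equal numbers of summits these 5 genes had no end summit in LNCaP and all kept theirs in resistant cells, at 52.9 or more.

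**Figure D3:**
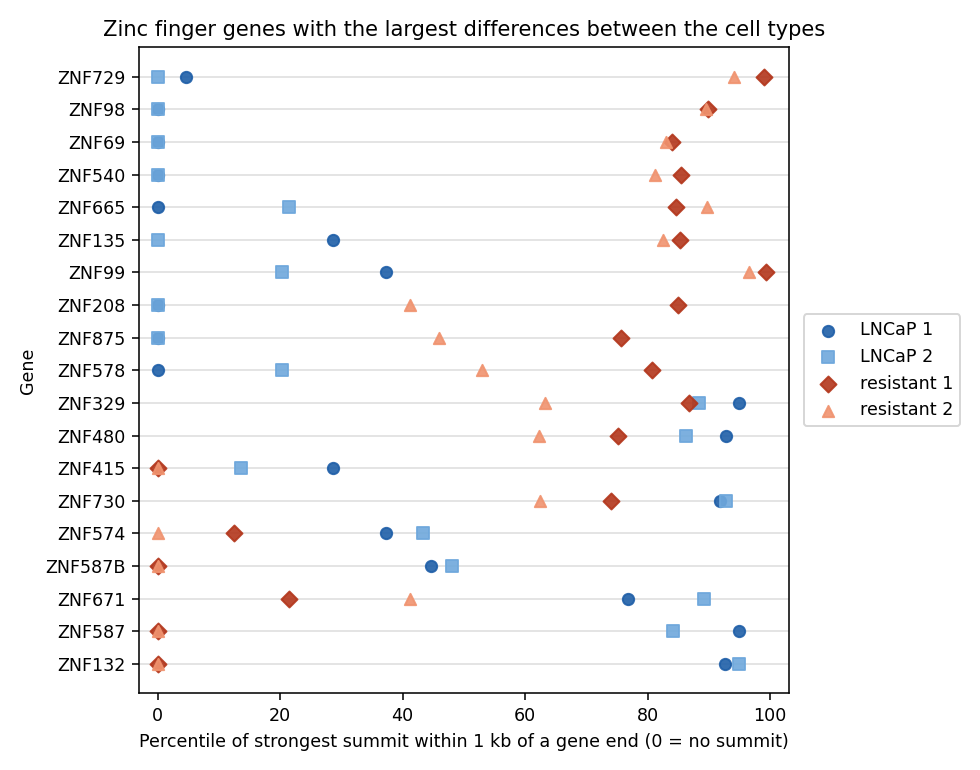
Percentile of the strongest summit within 1 kb of a gene end (x axis, 0 for no summit) for the zinc finger genes named as lost, gained, higher or lower (y axis), with 1 point per library. ZNF132 and ZNF587 stand above 80 in both LNCaP libraries and at 0 in both resistant ones, and ZNF98 and ZNF729 show the reverse pattern.

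Along the chromosome the genes fell into 16 groups separated by gaps of over 1 Mb. A run of genes with higher ends, picked out after its values were seen, lay at chr19:21939815-22784151 in the cluster nearest the centromere. It holds 7 zinc finger genes, ZNF208, ZNF257, ZNF676, ZNF729, ZNF98, ZNF492 and ZNF99, and no other protein-coding gene. The ends of 6 were higher in resistant cells. ZNF257 had 44.6 and 47.8 against 97.4 and 96.3, with summits at 56, 74, 74 and 60 bases before the start of the printed promoter. ZNF492 had 68.9 and 58.6 against 94.6 and 83.4. ZNF676 had no end summit, but its strongest body summit was at 0, 7.62, 88.2 and 69.8. In the whole cluster of 37 genes 10 were higher and 11 lower, and with equal numbers of summits 17 were higher and 6 lower.

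Other clusters leaned to 1 side. In the last group, from ZNF628 to ZNF446 at chr19:55476617-58489533, 26 of 59 zinc finger genes were lower and 4 higher, and this group held 4 of the 5 genes that were lower by over 30 points. Of the 45 other protein-coding genes inside the same span 9 were lower and 2 higher. In the group from ZNF575 to ZNF296 at chr19:43530835-45076478, 9 of 24 zinc finger genes were higher and none lower, and of the 27 other genes inside it 12 were higher and none lower. The median percentile of that group was 80.0 and 74.3 in LNCaP and 92.7 and 81.0 in resistant cells. ZNF576 (46.0 and 44.3 against 83.3 and 70.0) and ZNF234 (37.3 and 33.1 against 78.6 and 55.2) changed most there. With equal numbers of summits the last group turned to 16 higher and 10 lower, and the group from ZNF575 to ZNF296 to 19 higher and none lower. These groups were compared as counts, with no test of the difference between them.

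**Figure D4:**
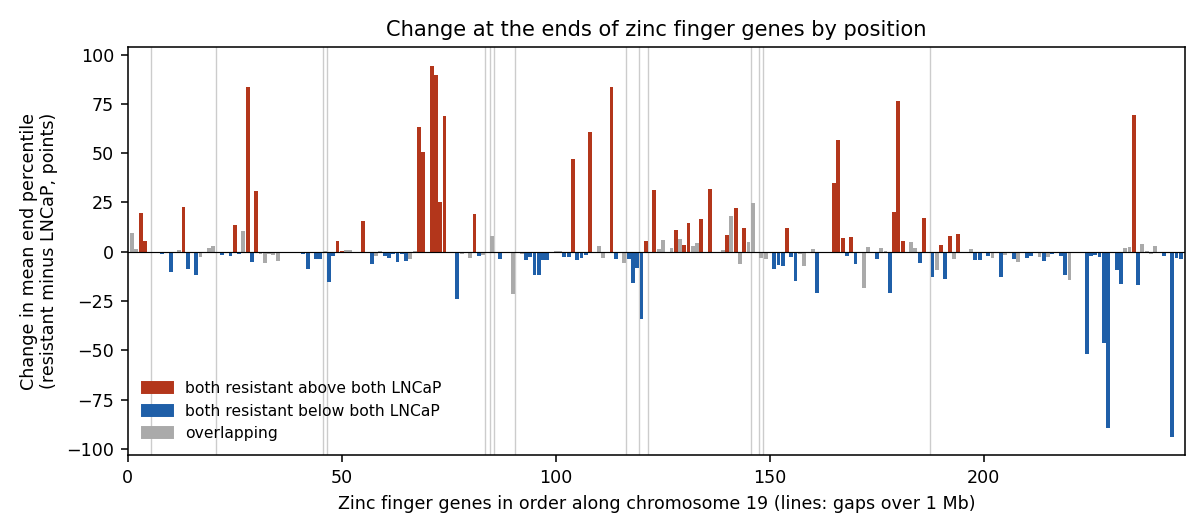
Change in mean end percentile, resistant minus LNCaP in points (y axis), for the 246 zinc finger genes in order along chromosome 19 (x axis, vertical lines at gaps over 1 Mb). Bars are coloured by whether both resistant libraries lay above both LNCaP libraries (42 genes), below (81) or overlapped, and the deepest negative bars stand in the last group.

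The gene bodies held few summits in either cell type. Over 1 kb from both ends, the zinc finger genes held 111 and 111 summits in LNCaP and 89 and 64 in resistant cells. This was 1.66 and 1.66 against 1.33 and 0.957 summits per 100 kb, where the other genes of the chromosome had 6.59, 6.06, 5.44 and 3.48. The density was lower in both resistant libraries by 0.52 (pooled SD 0.19, exact permutation p = 0.333), whereas lists cut to equal length gave a density higher by 0.0299. Without ZNF536 the difference was -0.31. Between 25.2% and 34.4% of these body summits lay within 1 kb of an end of another annotated gene. A body summit was present in 26.8% and 23.6% of the genes in LNCaP and in 24.4% and 19.9% in resistant cells, a difference of -3.05 points (pooled SD 2.76), and the libraries overlapped. In all, 170 of the 246 genes had no body summit in any library.

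In the bodies 16 genes were higher (6.50%, background 13.0%) and 23 lower (9.35%, background 19.9%), where 76 of the 246 zinc finger genes and 694 of the 1205 other genes had a body summit in any library. Without resistant replicate 2, 29 were higher, and without LNCaP replicate 2, 41 were lower. ZNF676, described above, and ZNF541 showed the largest differences, the latter with 8.58 and 0 in LNCaP against 71.0 and 66.9. ZNF541 is known from testis. ZNF329 had 38.1 and 4.35 against 70.4 and 64.3, opposite to its end. Among the lower bodies, ZNF787 had 5, 6, 2 and 0 summits, with percentiles of 89.9 and 91.3 against 67.1 and 0. ZNF552 had 51.9 and 69.6 against 0 and 0, and ZNF823 had 68.9 and 43.4 against 0 and 0. With equal numbers of summits only 1 LNCaP library kept a summit in each (28.5 in ZNF552, 20.0 in ZNF823), so that neither was then separated, and counted from 500 bp inside the ends the changes were -39.5 and -36.6 points in place of -60.8 and -56.1. Leaving out 1 library moved the change of ZNF787 from -57.1 to -23.5 points (without resistant replicate 2) or -90.6 (without resistant replicate 1), and that of ZNF329 from 46.1 to 29.2 (without LNCaP replicate 2). ZNF536, a gene known from brain with no other gene of the set within 1 Mb, held 19 and 22 of the body summits in LNCaP and 7 and 3 in resistant cells, with no end summit in any library.

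For 8 genes known for promoter methylation in tumours, 3 were lower at their ends (ZNF132, ZNF671 and ZNF382), 1 was higher (ZNF677) and 4 were not separated, with a median change of 0 points against -0.43 for all 246 genes. The share lower was 32.9% over the whole set and 17.3% over all protein-coding genes, and the share higher 17.1% and 20.3%. ZNF382 had 89.6 and 83.8 against 83.6 and 66.4, and its sign turned with equal numbers of summits. ZNF677 had 87.0 and 86.1 against 94.4 and 89.9, and ZNF582 overlapped at 97.4, 91.2, 95.9 and 95.3. ZNF154, ZNF331 and ZNF577 had no end summit in any library. ZNF577 had a body summit at 47.8, 13.6, 63.9 and 0, and ZNF154 had none. DNA methylation was not measured in these libraries.

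For 5 genes known to bind retroelements or zinc finger genes, 2 were lower (ZNF587 and ZNF417) and 3 were not separated, beside the same 32.9% and 17.3% lower over the set and over all protein-coding genes. Their median change was -0.43 points. ZNF417, which with ZNF587 acts on HERV-K, had 97.1 and 97.4 against 94.0 and 81.6. ZNF91, which binds SVA elements, had 99.1, 98.5, 98.8 and 98.0. ZNF93, which binds LINE-1 elements, had 92.0, 93.1, 97.5 and 89.8, and ZNF274, which binds the 3′ ends of zinc finger genes, had 92.1, 79.4, 89.9 and 89.1. Each of the last 3 was open in every library, and their groups overlapped.

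Genes of the corepressor that KRAB proteins recruit were looked at as the partners of the set. Of 14 such genes 3 were higher, 4 lower and 7 not separated, with 20.3% of all protein-coding genes higher and 17.3% lower. TRIM28, the corepressor itself, had 96.0, 96.3, 96.5 and 95.8. SETDB1, its methyltransferase, had 91.2 and 84.0 against 94.2 and 95.8. MORC2 and DNMT1, which act in silencing and in maintaining DNA methylation, were higher by 11.1 and 4.54 points (pooled SD 4.61 and 1.93). CBX5, MPHOSPH8 and PPHLN1, which act in heterochromatin, were lower, with changes of -4.18, -3.87 and -6.57 points. CHD3, a NuRD remodeller, had 46.0 and 40.5 in LNCaP and no end summit in resistant cells. Lists cut to equal length leave out LNCaP summits of this rank, so the loss at CHD3 rests on weak LNCaP summits.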

How the data were processed

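ATAC-seq libraries of LNCaP and enzalutamide-resistant LNCaP cells, 2 of each, were grouped by their titles. For each library the authors deposited its own list of summits, called on that library alone, with a −log10 score in the last column. Whether the score stands for a p-value or a q-value is not given in the sources used here, and the lowest score of each list lies just above 1.30, the value for 0.05. The submitters' processing notes name Bowtie2 2.2.5, SAMtools 1.6, MACS2 2.2.6, deepTools 3.5.2 and HOMER 4.11, and the build hg38. Settings, duplicate and multi-mapping filters, and any shift of reads for the transposase are not given in the sources used here. Scores were used only as ranks within a library. The depth is unknown, so no counting interval can be given, and shorter lists miss weak summits first.

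Gene ends, strands and promoters came from RefSeq tables of GRCh38.p14, and 216 of 246 genes matched an entry in the promoter table. Ends were compared within 1 kb, and bodies over 1 kb from both ends. The members and lists were chosen with earlier results of these data known. Genes were named by a rule: the 5 strongest lost and gained, the 5 largest higher and lower changes at ends, the 3 largest each way in bodies, the 3 strongest ends, and 2 lists, with another list of corepressor genes. The other gained genes, ZNF257, ZNF492, ZNF571, ZNF576, ZNF234, ZNF536, ZNF700, ZNF763, ZNF814 and the genes without any summit were named after their values were seen. Differences of 1 value per library were tested with two-sided exact permutation tests. The replicate number, which the labels call a batch, was used as a block in an alternative. Deviations of same-numbered libraries from their group means had a correlation of -0.026 over the 246 genes and 0.013 over all protein-coding genes. The replicates are not described as separate cultures, so p-values refer only to regroupings of these libraries. The pooled SD gives the spread between replicates. Alternatives were 500 bp and 3 kb, lists cut to equal length, a minimum score of 10, 1 summit per 500 bp, leaving out each library, the replicate block, genes that share no end, other chromosomes as background, and each end alone. Gene ranks, leaving out ZNF536 and the promoter table's starts were added after seeing the data. On simulated lists with 200 planted genes of 1451, 100% were recovered. The planted genes were long and stood apart from other gene ends, and the strong and weak scores of the higher and lower ones did not overlap. This checks the code only, and recovery at shared ends, in nested genes or for small changes was not tested. Sequences of the proteins were not analysed here. Python 3.11.15, numpy 2.4.6, pandas 2.3.3 and matplotlib 3.10.9 were used.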

Additional observations from a re-analysis of the deposited data

How the results depend on the processing

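Results are differences of resistant minus LNCaP unless given as counts. The share of zinc finger genes open at an end was higher in resistant cells under every alternative except the 3′ end alone (-0.69 points), where 1 gene was higher and 3 lower. The median end percentile turned with a score of at least 10 (0.36), with equal numbers of summits (10.8) and on leaving out a library, where it ran from -2.60 to 1.21 (0.63 without LNCaP replicate 1). With equal numbers the body density (0.0299), the body share (1.83 points), the gap to other genes in end share (-7.75 points) and in body density (-1.06) turned as well. The genes higher and lower at ends were then 99 and 31, gained and lost 15 and 2, and higher and lower in bodies 25 and 8. Among the 1205 other genes of chromosome 19, 514 ends were then higher and 50 lower, and 138 were gained and 13 lost. ZNF382 turned to 2.84. With a score of at least 10 the body share differed by 0, the gap in end share was -1.29 and 14 bodies were lower. Equal lists drop the weakest LNCaP summits by construction. The cause of the other turns was not tested. In 43 zinc finger genes an end lies within 1 kb of an end of another protein-coding gene, so 1 summit can count for both. ZNF382 and ZNF417, counted as lower above, are among them. Without genes that share an end, 33 ends were higher and 64 lower, and 5 were gained and 4 lost.

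Leaving out each library in turn, the gap in end share ran from -0.454 (without resistant replicate 2) to 2.58. The counts ran from 48 to 81 ends higher, from 91 to 122 ends lower, from 16 to 29 bodies higher and from 26 to 41 bodies lower, and the rule is easier to meet with 3 libraries. Beside the median end percentile and this gap, the other differences kept their direction. The replicate block left the differences as they were and gave 51 higher and 94 lower ends and 18 higher and 28 lower bodies, each within 1.5 times the count without it. The depth is unknown, and weak summits of the shorter resistant lists limit what can be called lost.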
